A study of Mus musculus with 24 samples.

Results

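Complex III (the cytochrome bc1 complex) and cytochrome c were followed in medial prefrontal cortex (mPFC) RNA-seq as 10 nuclear genes, chosen by name from the 15456 genes of the table: Uqcr10, Uqcr11, Uqcrb, Uqcrc1, Uqcrc2, Uqcrfs1, Uqcrh, Uqcrq, Cyc1 and Cycs. All 10 were found, and all 10 passed the filter on low values, so none is missing from the counts. The tissue came from 24 male BALB/c OlaHsd mice, labelled as 11 weeks of age, in 4 groups of 6. Control mice received only the vehicle, phosphate-buffered saline. The other groups received duloxetine (dul), an inhibitor of serotonin and norepinephrine reuptake, at 10 mg/kg by daily intraperitoneal injection; the gut bacterium Ruminococcus flavefaciens (Rum) by gavage; or both (dul+Rum). Treatment ran for 21 days before behavioral testing began. All animals were of 1 strain, the samples were tissue punches of mixed cell types, and mice were housed several to a cage. The labels give each mouse a pair of numbers, such as 9_3, whose meaning is not stated. The comparisons ask whether the bacterium, alone or on top of the antidepressant, came with different mRNA levels in the mPFC. Values are normalized counts, that is, reads per gene divided by a size factor for each mouse, and the reads recovered from them totalled 12811413 to 15607343 per mouse. In such tissue punches fewer cells of a type and less RNA per cell cannot be told apart.

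Complex III sits in the inner mitochondrial membrane, takes electrons from ubiquinol and hands them to cytochrome c, and moves protons across the membrane as it does so. Cytochrome c, encoded by Cycs, is a small soluble haem protein that carries the electrons on to complex IV. When it leaks into the cytosol it binds Apaf1 and starts the caspase cascade of apoptosis. Neurons depend heavily on this chain for the ATP that restores ion gradients. The catalytic centres lie in cytochrome b, made in the mitochondrion from mt-Cytb, in cytochrome c1 (Cyc1) and in the Rieske iron-sulfur protein (Uqcrfs1). Uqcrc1 and Uqcrc2 are the large core proteins on the matrix side. Uqcrh is the hinge protein beside cytochrome c1, Uqcrb and Uqcrq are small subunits that contact cytochrome b, and Uqcr10 and Uqcr11 are the smallest supernumerary subunits.

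The genes lie apart on GRCm38, and 3 of the 5 short motifs searched occurred in more than 1 of the 6 promoters that could be read. The files place Cyc1 at chr15:76343523-76345934, Uqcrfs1 at chr13:30540308-30545362, Uqcrc1 at chr9:108936633-108949623 and Uqcrc2 at chr7:120635176-120659524. Uqcrh is at chr4:116066965-116075071, Uqcrb at chr13:66900617-66905378, Uqcrq at chr11:53427922-53430831, Uqcr10 at chr11:4701973-4704342, Uqcr11 at chr10:80402997-80406830 and Cycs at chr6:50562563-50566538. RefSeq promoter windows (GRCm38.p6, 250 bases before to 50 after the start) were matched for 6 members: Uqcrh, Cycs, Uqcrc1, Uqcr11, Uqcr10 and Uqcrfs1. Each was searched on both strands for NRF1 (GCGCATGCG), ETS (CCGGAAG), YY1 (AAGATGGCG), CRE (TGACGTCA) and ERR (TCAAGGTCA), the motifs of factors known for nuclear genes of respiration.

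The NRF1 letters were found in the windows of Cycs, Uqcrc1 and Uqcr11, against 1.75% of all 32817 promoters. The ETS letters were found in Uqcrh and Uqcr11 (8.86% of all promoters) and the CRE letters in Cycs and Uqcrfs1 (1.79% of all). YY1 (1.4% of all) and ERR (0.424% of all) letters were in none of the 6 windows, and the Uqcr10 window held none of the 5 motifs. The stretches around the matches are shown because these genes are described together in what follows, with the matches in capitals. NRF1 and CRE letters are in Cycs, ETS and NRF1 letters in Uqcr11, NRF1 letters in Uqcrc1 (overlapping matches on both strands), ETS letters in Uqcrh and CRE letters in Uqcrfs1.
Cycs, chr6:50566612-50566748, minus strand: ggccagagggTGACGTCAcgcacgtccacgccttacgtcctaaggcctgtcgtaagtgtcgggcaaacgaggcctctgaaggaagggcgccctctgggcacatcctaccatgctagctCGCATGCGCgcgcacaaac
Uqcr11, chr10:80406808-80406897, minus strand: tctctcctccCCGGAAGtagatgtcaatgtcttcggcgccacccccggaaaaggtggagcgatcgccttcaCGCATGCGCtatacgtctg
Uqcrc1, chr9:108936668-108936697, plus strand: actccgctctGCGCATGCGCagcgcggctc
Uqcrh, chr4:116075064-116075090, minus strand: gtatgccgcaCTTCCGGccaggtcgcc
Uqcrfs1, chr13:30545328-30545355, minus strand: ggcgtcgcgcTGACGTCAcaaaccctgc
The NRF1 letters begin 61 bases before the RefSeq start in Cycs and 5 bases before it in Uqcr11, and in Uqcrc1 they begin at base 31 of the transcript. Such a match describes the letters and was not tested as a binding site.

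Certain mice stood apart before any group was compared. Mouse 9_3 of the Rum group had the highest value of its group for 7 members and was among the 3 highest of all 24 mice for 8. Mouse 7_2, also of the Rum group, was among the 3 highest for 9 members. Mouse 8_4 of the Rum group differed in another way: its summed level of 8 striatal markers was 7980 normalized counts against a Rum group median of 2636, and its summed choroid plexus markers reached 791 against a median of 85.5. The cortical excitatory neuron markers were all present, with Camk2a the most abundant at a control mean of 51331. Members' differences that involve the Rum group are therefore also given without mice 9_3, 7_2 and 8_4 where leaving them out moved the value. Mouse 11_4 of the dul+Rum group was also high in the striatal markers, at 4904 against a group median of 2807. Without it the striatal markers' median log2 fold change in dul+Rum against control was -0.177, and 0.028 with all mice. The members' median there was 0.072 without it and 0.074 with all mice.

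Compared per kilobase of transcript, cytochrome c had the lowest control level of the members and Uqcrq the highest. The group means of control mice, in normalized counts per kilobase, ran from Uqcrq (2134), Uqcrh (2021) and Uqcr11 (1870) through Uqcrc1 (1510) and Uqcr10 (1353) to Cyc1 (1110), Uqcrc2 (1089), Uqcrb (928.5), Uqcrfs1 (876.2) and Cycs (209.7). Neighbours such as Uqcrq and Uqcrh, or Cyc1 and Uqcrc2, differed by less than or about as much as the spread between mice, which was 5.43% and 6.75% of the mean for the first pair and 4.68% and 3.26% for the other. The mitochondrial mt-Cytb stood far above them all, at 45943 per kilobase. The low Cycs value is on an annotated transcript of 3123 bases, against 434 to 535 bases for the 5 small subunits.

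**Figure D1:**
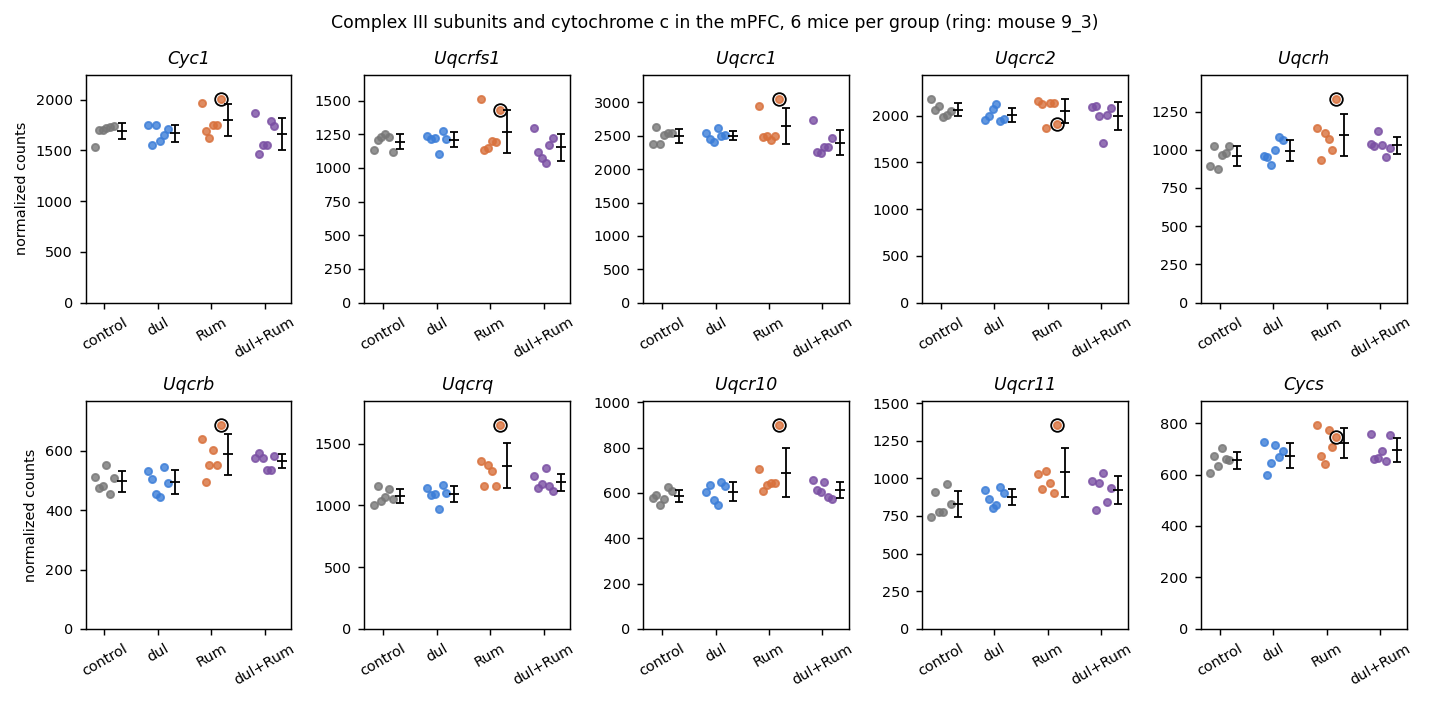
Normalized counts of the 10 members (vertical axes from 0) in each of the 24 mice, by group, with the mean and SD of 6 mice beside the points and a ring around mouse 9_3. The Rum group had the highest mean for 9 members and the control group for Uqcrc2, and in no panel does a treated group lie wholly above or below the controls.

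The bacterium alone came with higher mean levels of the 5 small subunits and of cytochrome c, and with little difference in the 2 core proteins, cytochrome c1 and the Rieske protein, but none of the 10 genes passed the test across all genes. In the comparison of Rum with control, 9 of 10 members were higher, against 50.8% of the 14974 genes tested, and 6 had an unadjusted p under 0.05, all of them higher, against 8.86% of all genes. The members' median log2 fold change was 0.16, against 0.003 over all genes, and 0.058, against 0.005, with the length trend removed. With Benjamini-Hochberg adjustment in limma no member was under 0.05. Only 4 genes of the whole table were (0.0267%). The members' adjusted p ranged from 0.0727 to 0.937.

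Among the small subunits, Uqcrq, which lies against cytochrome b, had the smallest p. Its normalized counts were 1007, 1060 and 1157 (lowest, median and highest) in control mice and 1156, 1303 and 1648 in Rum mice. The Rum mice thus lay at or above the top of the control range, with 4 of 6 above every control mouse and the lowest level with the highest control. The means were 1076 ± 58.4 and 1321 ± 181 (SD, n = 6 each). The log2 fold change was 0.29 ± 0.07 (SE, a 1.22-fold difference; adjusted p = 0.0727, limma), which ranked 30 of all genes by p. Without mouse 9_3 it was 0.22 (adjusted p = 0.149, limma).

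Uqcr11, the subunit with the largest fold difference of the 10, was at 741.7, 801.7 and 965.1 in control mice and at 904.1, 998.9 and 1352 in Rum mice. Here 4 of 6 Rum mice exceeded every control, and mouse 9_3 lay well above the next Rum mouse at 1052. The log2 fold change was 0.31 ± 0.08 (SE, 1.24-fold; adjusted p = 0.0727, limma), and 0.24 without mouse 9_3. Uqcrb, also a neighbour of cytochrome b, was at 453.4, 494.1 and 552.2 in control mice and at 493.9, 577.6 and 685.8 in Rum mice, with 3 of 6 above every control. Its log2 fold change was 0.24 ± 0.07 (SE; adjusted p = 0.0806, limma), and 0.19 without mouse 9_3.

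Uqcr10, another of the smallest subunits, had control values of 546.0, 584.6 and 626.1 and Rum values of 608.1, 644.2 and 898.5. All but 1 of the Rum mice exceeded every control, more than for any other member. Its log2 fold change was 0.22 ± 0.07 (SE; adjusted p = 0.103, limma). Mouse 9_3 carried part of this, since without it the log2 fold change was 0.14. Uqcrh, the hinge protein, was at 873.0, 970.1 and 1026 in control mice and at 930.2, 1092 and 1331 in Rum mice, with 4 of 6 above every control. Its log2 fold change was 0.19 ± 0.07 (SE; adjusted p = 0.127, limma) and was 0.13 without mouse 9_3.

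Cytochrome c itself followed at a smaller size. Cycs was at 605.6, 658.2 and 704.5 in control mice and at 640.2, 726.7 and 791.2 in Rum mice, and 4 of 6 Rum mice exceeded every control. The means were 654.8 ± 33.9 and 721.9 ± 59.3 (SD, n = 6 each). The log2 fold change was 0.14 ± 0.06 (SE; adjusted p = 0.19, limma). The highest Rum mouse for Cycs was 7_2, and without it the log2 fold change was 0.11 (adjusted p = 0.322, limma), while without 9_3 it was 0.13.

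The electron-carrying and core subunits showed smaller differences that were within the spread between mice. Cyc1 (log2 fold change 0.09, 95% confidence interval -0.03 to 0.21), Uqcrc1 (0.08, -0.03 to 0.19) and Uqcrfs1 (0.08, -0.05 to 0.21) were each a little higher in Rum mice, and their intervals all include 0. Without mouse 9_3 these values were 0.06 for Cyc1, 0.04 for Uqcrc1 and 0.04 for Uqcrfs1, and without 7_2 they were 0.06, 0.05 and 0.03. Uqcrc2 was at 1987, 2059 and 2176 in control mice and at 1866, 2126 and 2151 in Rum mice, and its log2 fold change was -0.01 (95% confidence interval -0.11 to 0.09). Its sign turned to 0.02 with quantile normalization and to 0.01 with rescaling to the 75th percentile, so Uqcrc2 has no direction here. The upper bounds of the intervals reach the 0.19 measured for Uqcrh in Cyc1, Uqcrfs1 and Uqcrc1, and stop short of it in Uqcrc2. The grouping into small and other subunits was made after the values had been seen.

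Leaving out single mice moved these calls. With all 24 mice and no block, limma called no member. It called 4 (Uqcr11, Uqcrb, Uqcrh and Uqcrq) without the Rum mouse 8_3, 3 without 9_2, 2 without 9_1 and none without 9_3. More of all genes were called in these fits as well, 2.85% without 8_3, 4.11% without 9_2 and 1.6% without 9_1, against 0.0267% with all mice. With DESeq2 on the recovered reads 4 members were called higher: Uqcrq (adjusted p = 0.011), Uqcr11 (0.0224), Uqcrb (0.0312) and Uqcr10 (0.0493), where 2.45% of the genes that DESeq2 tested were called higher. edgeR's quasi-likelihood test on the same reads called none of the members and 0.0267% of all genes. With a random block for the first label number (consensus correlation -0.045), limma called Uqcr11 and Uqcrq among 221 genes in all. For no member did all Rum mice exceed all controls, which held for 0.788% of all genes. Mouse 8_4 was the mouse highest in striatal markers. Without it log2 fold changes were 0.28 for Uqcrq, 0.31 for Uqcr11, 0.25 for Uqcrb, 0.24 for Uqcr10, 0.18 for Uqcrh and 0.17 for Cycs. Without mouse 7_2 they were 0.28 for Uqcrq, 0.31 for Uqcr11, 0.21 for Uqcrb, 0.21 for Uqcr10 and 0.17 for Uqcrh.

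**Figure D2:**
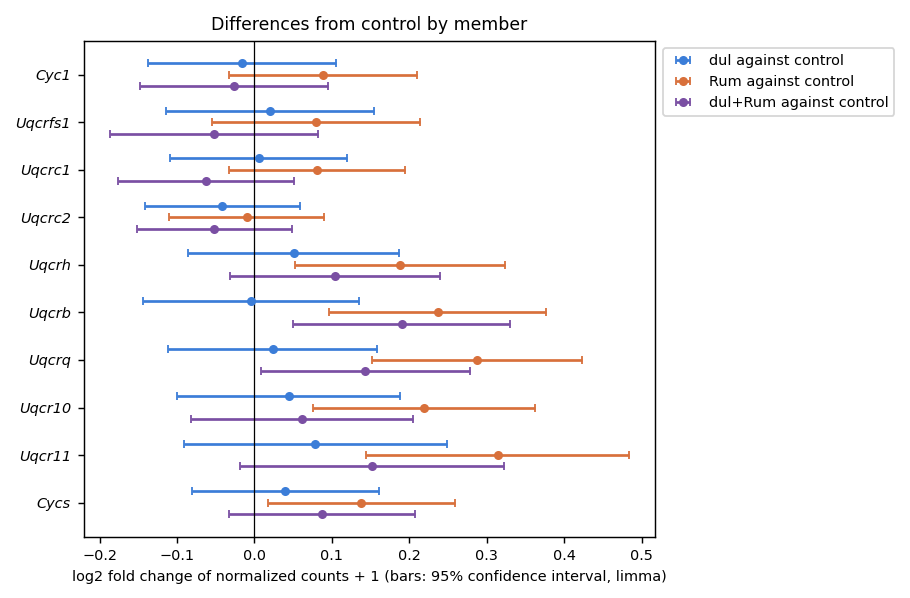
Log2 fold change of each member against control (horizontal axis, log2 scale) for dul, Rum and dul+Rum, with 95% confidence intervals from limma; the 3 comparisons share the same 6 control mice. The Rum intervals of Uqcrh, Uqcrb, Uqcrq, Uqcr10, Uqcr11 and Cycs lie above 0 before adjustment, and the dul intervals all include 0.

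Duloxetine alone came with no detectable difference in any member. The log2 fold changes of dul against control lay between -0.04 (Uqcrc2) and 0.08 (Uqcr11). Their median was 0.02, against -0.002 over all genes, and -0.028, against -0.015, with the length trend removed. None of the 10 had an unadjusted p under 0.05, and the adjusted p was 0.9996 for each in limma. No gene of the table was called in this comparison (0%), while 573 had an unadjusted p under 0.05, and on recovered reads edgeR called 0 genes and DESeq2 called 1, which was not a member. Uqcrq illustrates the overlap, with dul values of 973.8, 1096 and 1166, close to the control range of 1007 to 1157. For Uqcrq the 95% confidence interval of the log2 fold change was -0.11 to 0.16, and for Cycs -0.08 to 0.16.

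The bacterium given together with duloxetine came with levels between those of the control and Rum groups for the small subunits. In dul+Rum against control, 2 members, Uqcrb and Uqcrq, had an unadjusted p under 0.05, both higher, against 8.08% of all genes. None was called after adjustment, when limma called 0.1% of all genes, edgeR 0.114% and DESeq2 1.68% of the genes it tested. The members had a median log2 fold change of 0.07, against 0.001 over all genes, and of -0.06, against -0.026, with the length trend removed. Uqcrb, at 534.3, 575.0 and 593.6 in dul+Rum mice, exceeded the control mean in all 6 mice and every control in 4, and its log2 fold change was 0.19 (adjusted p = 0.179, limma). Uqcrq, at 1116, 1167 and 1299, was higher by 0.14 (adjusted p = 0.274, limma). Uqcr11 was at 0.15, Uqcrh at 0.10, Cycs at 0.09 and Uqcr10 at 0.06 on the same log2 scale.

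The other subunits had estimates on the opposite side of 0 in this group. Uqcrc1 (-0.06), Uqcrfs1 (-0.05), Uqcrc2 (-0.05) and Cyc1 (-0.03) all had log2 fold changes below 0 against control, with 0 inside each confidence interval. For Uqcrc1 4 of 6 dul+Rum mice were below every control, at 2241 to 2740 normalized counts over the group, against 2371 to 2628 in controls. No member had all dul+Rum mice above all controls, as 0.882% of all genes did.

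Set against duloxetine alone, the combined treatment differed most in Uqcrb. Its log2 fold change was 0.19 (adjusted p = 0.816, limma), and Uqcrb was the only member with an unadjusted p under 0.05, against 3.02% of all genes that reached this with a higher level. The dul values of Uqcrb were 443.1, 498.4 and 546.3, and 4 of 6 dul+Rum mice lay above all of them. No gene was called in this comparison by limma (0%), with 883 at an unadjusted p under 0.05, and edgeR called 0 and DESeq2 1, not a member.

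Set against the bacterium alone, all 10 members had lower means in dul+Rum mice. The log2 fold changes ranged from -0.16 (Uqcr11) to -0.04 (Uqcrc2), with a median of -0.12, against 0.002 over all genes. With the length trend removed the members' median was -0.112, against -0.028. The members with an unadjusted p under 0.05 were Uqcrc1 (log2 fold change -0.14), Uqcr10 (-0.16) and Uqcrq (-0.14), against 9.9% of all genes that reached this with a lower level. None of the members was called after adjustment (lowest adjusted p 0.155 in limma), while 2.23% of all genes were. The members' Rum values used here are the same as those set against control. The median was -0.08 without mouse 9_3, -0.08 without 7_2 and -0.14 without 8_4. Without either 9_3 or 7_2 no member had an unadjusted p under 0.05, whereas 6 were lower at that p without 8_3.

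Whether the difference that came with the bacterium depended on duloxetine was tested as an interaction. Its estimates for the members ran from -0.24 (Uqcr11) to -0.00 (Uqcrc2) on the log2 scale. A value below 0 means a smaller difference with duloxetine than without. The median was -0.14, against -0.002 over all genes, and -0.099, against -0.018, with the length trend removed. Uqcr11 alone had an unadjusted p under 0.05, against 3.67% of all genes that reached this with a lower estimate, and the adjusted p of the members was at least 0.647. No gene of the table was called by limma (0%), with 1128 at an unadjusted p under 0.05, nor by edgeR or DESeq2. The members' median estimate was -0.09 without mouse 9_3, -0.11 without 7_2 and -0.15 without 8_4.

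The subunit made in the mitochondrion followed another order of the groups. mt-Cytb, the cytochrome b at the heart of the complex, had mean normalized counts of 52559 ± 2394 in control, 57928 ± 6820 in Rum, 61282 ± 7136 in dul and 67771 ± 9519 in dul+Rum mice (SD, n = 6 each). Its log2 fold change against control was 0.13 in Rum (adjusted p = 0.414), 0.21 in dul (adjusted p = 0.9996) and 0.36 in dul+Rum mice (adjusted p = 0.0819, limma). The mt-Cytb difference in dul+Rum was called by DESeq2 (adjusted p = 0.00763) but not by edgeR (0.059). In limma it was called when only the groups compared were fitted (0.0466), and without mouse 9_3 (0.0347) or 12_4 (0.0252). Mouse 9_3, of the Rum group, bears on this call only through the spread estimated over all groups. Under quantile normalization the log2 fold change of mt-Cytb was 0.01 in dul+Rum (adjusted p = 0.898, limma), -0.06 in Rum and -0.02 in dul, so that the sign turned in the single treatments. With TMM scaling and with rescaling to the 75th percentile it stayed above 0, at 0.36 and 0.39 in dul+Rum, 0.13 and 0.15 in Rum and 0.22 and 0.23 in dul. In Rum it was 0.08 without mouse 9_3 and 0.04 with the length trend removed. The dul+Rum mice ranged from 55899 to 81522 and the controls from 48871 to 56103, so that mt-Cytb overlapped between them only at the edge. The dul+Rum mice highest in mt-Cytb were 12_2 (81522) and 11_3 (76410), and its log2 fold change was 0.30 without the former (adjusted p = 0.194) and 0.32 without the latter (adjusted p = 0.225, limma).

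The 13 mRNAs of the mitochondrial genome, mt-Cytb among them, were all higher in dul+Rum than in control mice, with a median log2 fold change of 0.356 and an unadjusted p under 0.05 for each. In dul against the same controls all 13 were also higher, with a median of 0.249. Each had an unadjusted p under 0.05, and 10 did without mouse 5_3. Among all 14974 genes tested, 573 reached that p in either direction. The 13 were measured in the same mice, so they do not count as 13 replicates. In Rum 11 were higher, 3 of them at that p, with a median of 0.137, and without mouse 9_3 this became 10 higher, 1 at that p, and 0.078. With the length trend removed these medians were 0.249, 0.198 and 0.046, and with quantile normalization they were 0.142, 0.117 and 0.077. In limma, with the filter and scaling used throughout, none of the 13 was called in these 3 comparisons. For dul+Rum against control, however, DESeq2 called 12 (1.68% of the genes it tested) and edgeR 2 (0.114% of all genes). In limma 10 were called when only the groups compared were fitted (1.31%), 10 without mouse 9_3 (0.821%) and 11 without 12_4 (1.03%). Mouse 9_3 is a Rum mouse and in neither group of this comparison. Leaving it out kept the median at 0.356 and moved only the spread estimated over all groups. With a minimum mean of 50 limma called 3 (of 30 genes called in all), and with rescaling to the 75th percentile 3 (of 23). It called 6 with a block for the first label number (of 59), 2 with the length trend removed (of 32) and 2 with quantile normalization. Against Rum, all 13 were higher in dul+Rum mice, with a median of 0.223, and mt-Nd4l and mt-Nd5, both subunits of complex I, were called in limma, beside 2.23% of all genes, but neither was when only the groups compared were fitted or without mouse 11_3. That median was 0.092 with quantile normalization, where 10 were higher and 2 lower, and 0.116 with the GC trend removed, where 11 were higher, 2 were lower and mt-Nd5 was not called.

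Transcript length moved with these differences. Among tested genes other than the members, those with transcripts under 600 bases (278 genes) had a median log2 fold change of 0.167 in Rum against control. The median was 0.134 from 600 to under 1000 bases, 0.076 from 1000 to under 2000, -0.001 from 2000 to under 4000 and -0.090 at 4000 and over. The 5 small subunits, with transcripts of 434 (Uqcr10), 445 (Uqcr11), 474.5 (Uqcrh), 504 (Uqcrq) and 535 bases (Uqcrb), fall in the shortest class, of which 77.3% were higher. Uqcrfs1, Cyc1, Uqcrc1 and Uqcrc2, at 1363 to 1896 bases, fall in the class of 1000 to under 2000, and their log2 fold changes of 0.08, 0.09, 0.08 and -0.01 lie near or below its median. Cycs, at 3123 bases, lies above the median of its class by about its whole log2 fold change of 0.14.

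**Figure D3:**
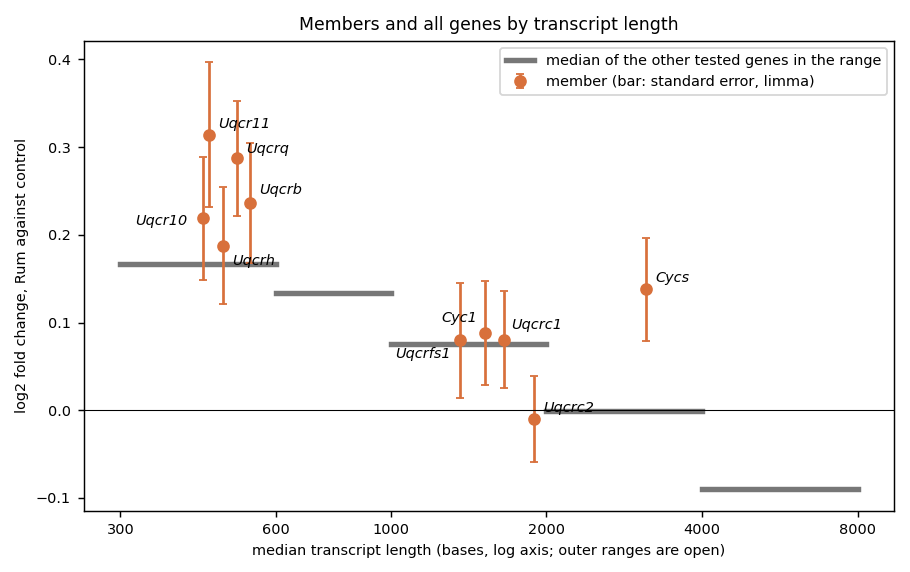
Log2 fold change of Rum against control (vertical axis) by median transcript length in bases (log axis), with the 10 members as points with standard errors and grey bars for the median of the other tested genes in each length range. The small subunits lie at or above the 0.167 of the shortest class, and Cycs lies above the median of -0.001 for genes of its length.

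With the length trend removed from each mouse, the members' median log2 fold change in Rum against control became 0.06, and 3 members had an unadjusted p under 0.05, against 5.92% of all genes that reached this with a higher level. These were Uqcrq (0.14, adjusted p = 0.221), Uqcr11 (0.17, adjusted p = 0.282) and Cycs (0.16, adjusted p = 0.312) in limma. Uqcrb was then at 0.10, Uqcr10 at 0.07 and Uqcrh at 0.04. In dul+Rum against control the median became -0.06, with Uqcrb at 0.05, Uqcrq at 0.00 and Uqcrc1 at -0.12 (adjusted p = 0.249, limma). The source of the length trend was not tested.

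The small subunits varied between mice together with this length measure. For each mouse the median log2 deviation from the mean over all mice was taken for tested genes under 1000 bases, members left out, minus that for genes over 4000 bases, a measure made after the values had been seen. It was -0.108 ± 0.033 in control, -0.040 ± 0.083 in dul, 0.124 ± 0.217 in Rum and 0.035 ± 0.069 in dul+Rum mice (SD, n = 6 each), and 0.514 in mouse 9_3. Across the 24 mice, after the group means were subtracted, the mean of the small subunits followed it with Pearson's r of 0.900 and Spearman's rho of 0.850 (r = 0.779 without mice 9_2 and 9_3). For the mean of Cyc1, Uqcrfs1, Uqcrc1 and Uqcrc2 r was 0.313 (rho 0.177), and for Cycs 0.085 (rho 0.127). Without mice 9_2 and 9_3 these r values were 0.070 and -0.026. These are descriptions over mice that share libraries and depth with the measure. Within the Rum group the 3 mice highest in it, 9_3, 7_2 and 8_4, also had the fewest recovered reads (13434125, 12811413 and 12834286). Control mice all had values below 0, at 13435517 to 14446451 reads, a range that lies above all 3. The part of depth was not tested.

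**Figure D4:**
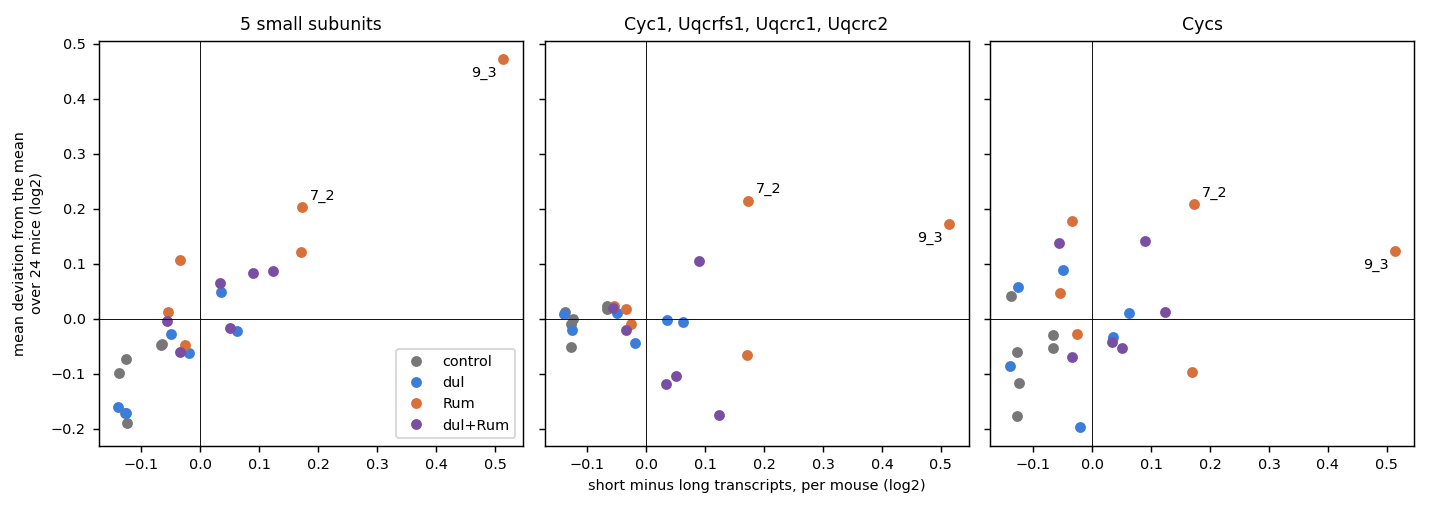
Mean deviation of the small subunits, of Cyc1, Uqcrfs1, Uqcrc1 and Uqcrc2, and of Cycs from their mean over 24 mice (vertical axis, log2) against the short-minus-long transcript measure of each mouse (horizontal axis, log2), 1 point per mouse coloured by group. The small subunits climb along the measure up to mouse 9_3 at 0.472, while the other panels show a looser spread.

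Pairs of small subunits had the highest median correlation, and Uqcrc2 had the lowest correlations of the members. Over 24 mice, with group means subtracted, the median Pearson's r of the 10 pairs of small subunits was 0.732 (median Spearman's rho 0.608). They were led by Uqcrq with Uqcr10 (0.860) and Uqcrq with Uqcr11 (0.859). The lowest of these pairs was Uqcrb with Uqcr11, at r = 0.315 (rho 0.138). The pairs among Cyc1, Uqcrfs1, Uqcrc1 and Uqcrc2 had a median r of 0.439 (median rho 0.306), with Cyc1 and Uqcrfs1 at 0.776. Between these classes the median was 0.403, close to that among the latter. The pairs below 0 all held Uqcrc2, led by its pairs with Uqcrq (-0.617) and Uqcr11 (-0.613), and its highest r was 0.141, with Uqcrfs1. Cycs with any subunit had a median r of 0.346.

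**Figure D5:**
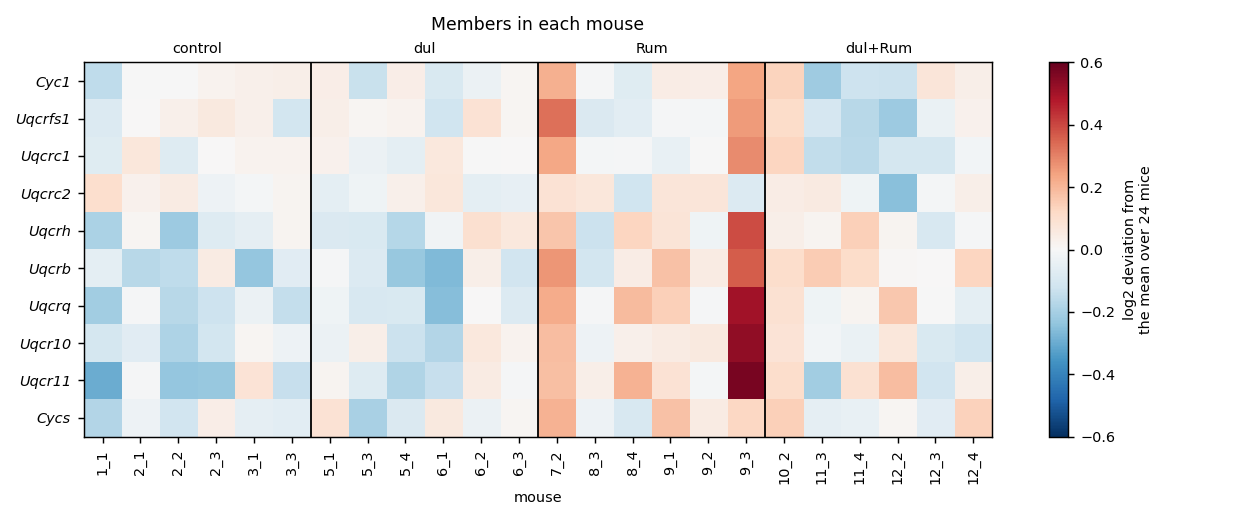
Log2 deviation of each member (vertical) from its mean over 24 mice, in every mouse (horizontal, by group), on a colour scale from -0.6 to 0.6. Mouse 9_3 is darkest in the small subunits and below the mean in Uqcrc2, and mouse 7_2 is above the mean in all members.

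The genes whose profile was most like the mean of the members, by Pearson's r over the 24 mice with group means subtracted, were Cox7b (0.928), a subunit of complex IV, Sars (0.900), Prdx5 (0.899), Map1lc3a (0.897), Tspan3 (0.891), Ndufv1 (0.890), a subunit of complex I, Ap4s1 (0.887), Asna1 (0.886), Prdx2 (0.881) and Stmn3 (0.881). Without mice 7_2 and 9_3 these correlations were 0.772 to 0.866.

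Neighbouring steps of the chain were described from lists of known genes. The nuclear subunits of complex IV, which takes electrons from cytochrome c, were higher in Rum than in control mice for 14 of 14 tested, 12 of them with an unadjusted p under 0.05 and a median log2 fold change of 0.239. Among them Cox8a passed the adjusted threshold (log2 fold change 0.36, adjusted p = 0.0261, limma). Cox8a lost that call without any one of mice 1_1, 2_2, 2_3, 3_1, 3_3, 7_2, 8_4 or 9_3 (adjusted p up to 0.131), when only the groups compared were fitted (0.185), with the length trend removed (0.116), with length and GC trends removed (0.144) and with a block for the second label number (0.0696). For complex I, 34 of 36 were higher, 26 with an unadjusted p under 0.05, none called, with a median of 0.192. Ndufa1 (0.34, adjusted p = 0.0687, limma) had the smallest p of the list, and Ndufs1, at -0.01, was among the 2 genes below control. With the length trend removed these medians were 0.108 for complex IV and 0.077 for complex I, beside 0.058 for the 10 members. Without mouse 9_3 they were 0.182 and 0.127, beside 0.129 for the members.

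Assembly of complex III was represented by 9 tested genes, of which 7 were higher in Rum mice. At an unadjusted p under 0.05, 5 were higher and 1 was lower (4 and 0 without mouse 9_3). The list's median log2 fold change was 0.115, and 0.039 with the length trend removed. Uqcc2, which is needed for the synthesis of cytochrome b, was at a log2 fold change of 0.28 (adjusted p = 0.0727) and Ttc19, which clears fragments of the Rieske protein, at -0.17 (adjusted p = 0.155, limma). Among 7 genes of cytochrome c maturation and mitochondrial import none had an unadjusted p under 0.05, with Pmpcb at 0.11 and Pmpca at -0.05, the subunits of the processing peptidase. No gene of these lists was called.

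Upstream, the enzymes that feed electrons to ubiquinone had 8 of 12 higher, 4 with an unadjusted p under 0.05 and 1 lower at that p, at a median of 0.116. Without mouse 9_3 they were 1 and 0 at that p, with a median of 0.073, and with the length trend removed the median was 0.037. Prodh, proline dehydrogenase, was at 0.28 (adjusted p = 0.145) and Gpd2, the glycerol phosphate dehydrogenase of mitochondria, at -0.11 (adjusted p = 0.214, limma). Of 13 genes of ubiquinone synthesis 10 were higher and 3 had an unadjusted p under 0.05 (1 without mouse 7_2), at a median of 0.094 that was 0.051 without 9_3. They were led by Coq10b (0.23, adjusted p = 0.0806, limma), and Coq6 was at -0.04.

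The list of cytochrome c release and the apoptosome had 8 of 12 genes higher with a median of 0.013, close to that of all genes, which was -0.009 without mouse 9_3. Bax, which permeabilises the outer mitochondrial membrane so that cytochrome c escapes, was at 0.19 (adjusted p = 0.189) and the caspase inhibitor Xiap at -0.16 (adjusted p = 0.142, limma). The regulators of respiratory genes, such as the coactivator Ppargc1b, had 7 of 11 genes below control, 3 of them at an unadjusted p under 0.05, and a median of -0.065, which was -0.014 with the length trend removed and ran from -0.097 to -0.034 with single mice left out. Ppargc1b was at -0.26 (adjusted p = 0.103) and the nuclear receptor Esrra at 0.16 (adjusted p = 0.285, limma). None of these genes was called.

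Markers of other cells were set beside these values as lists, for Rum against control. All 5 blood genes were higher, 4 with an unadjusted p under 0.05 (1 without mouse 8_4), at a median log2 fold change of 0.748, and their summed level had a median of 535.4 normalized counts in Rum against 350.1 in control mice, with Hbb-bs the most abundant. All 8 microglial genes were higher, 5 with an unadjusted p under 0.05 (3 without mouse 2_2), at a median of 0.200. Their summed medians were 4893 and 4391, with Csf1r the most abundant. Of 8 inhibitory neuron markers 6 were higher, 4 at that p, at a median of 0.130 (12075 and 10963, Gad1). Of 8 astrocyte markers 6 were higher, 3 at that p, at a median of 0.152 (67958 and 65723, Slc1a2). Without mouse 8_4 the astrocyte median was 0.096. Of 8 excitatory neuron markers 6 were lower, 2 at that p, and 1 was higher at it, at a median of -0.050. With single mice left out that median ran from -0.079 to -0.023. The excitatory markers lower at that p then numbered 1 to 3, and those higher 0 to 1. Their sum, however, with Camk2a the most abundant, was 103229 against 101658.

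In the remaining lists few markers or none had an unadjusted p under 0.05. The 8 oligodendrocyte markers were all higher, none at that p, at a median of 0.141 (summed medians 35319 and 24623, most abundant Mbp), which ran from -0.019 without mouse 9_2 to 0.372 without 9_1, and was -0.009 without 8_4 and 0.361 without 7_2. Of 8 striatal markers 5 were higher, none at that p, at a median of 0.228 (2636 and 2891, Pde10a), and without mouse 8_4 only 2 were higher, 3 were lower at that p, and the median was -0.079. Of 8 endothelial markers 6 were higher, none at that p, at a median of 0.094 (3642 and 3462, Flt1). Of 6 choroid plexus markers 3 were in the table, of which 2 were higher, 1 at that p (Ttr, log2 fold change 3.34, adjusted p = 0.107, limma), at a median of 0.984 that was 0.525 without mouse 8_4 (summed medians 85.5 and 50.3, Kl), and Folr1, Kcnj13 and Otx2 are not listed.

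Some of the same lists were also higher in the groups that received duloxetine. Blood genes were higher in dul+Rum than in control mice for 5 of 5, all with an unadjusted p under 0.05 (0 without mouse 11_3), at a median of 0.783, and in dul mice for 5 of 5, none at that p, at 0.296 (0.038 without mouse 6_3). Microglial genes were higher for 8 of 8 in dul+Rum, 6 at that p (4 without mouse 12_2), at a median of 0.230, and for 7 of 8 in dul, 4 at that p (1 without mouse 3_3), at 0.181. Astrocyte markers were higher for 8 of 8 in dul+Rum, 3 at that p (0 without mouse 12_2), at 0.163, and endothelial markers for 7 of 8, 2 at that p (0 without mouse 1_1), at 0.168. The dul+Rum mice highest in mt-Cytb were also high here. Mouse 12_2 had the highest summed microglial (6143) and endothelial (4998) levels of all 24 mice, and 11_3 and 12_2 the highest blood levels, 1090 and 1062 against a group median of 469.6. No marker was called against control in dul, Rum or dul+Rum, and the part of cell makeup in the levels of the members and of the mitochondrial mRNAs was not tested.

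Reads that could belong elsewhere were looked for by position and name. Uqcrb overlaps Gm10767 on the opposite strand by 465 bases, and Gm10767 had a mean of 12.1 normalized counts, far below Uqcrb. Uqcrc2 overlaps Pdzd9 by 794 bases and Uqcrh the processed pseudogene Gm12854 by 297 bases, both on the opposite strand. The library kit does not mark strand, so such reads cannot be assigned. Cyct, the testis form of cytochrome c, and the processed copies Cycs-ps2, Cycs-ps3, Uqcrh-ps1 and Uqcrh-ps2 are annotated but not listed in the table, and reads shared with them could not be separated.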

How the data were processed

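Poly(A) RNA of mPFC punches was sequenced on an Illumina HiSeq 2500 with a NEBNext Ultra kit, which does not mark strand. Per the study's methods the authors aligned reads with Tophat2 to GRCm38. The submitters' notes name TopHat2 2.1.0, Bowtie2 2.2.6, DESeq2 1.18.1 and mm9; gene positions in the table matched GENCODE vM21 (GRCm38) for 14285 of the 15438 IDs found. The counting tool, its strand setting and the low-count filter are not given in the sources used here. The deposited values are a signal: counts divided by DESeq2 size factors. Of the values above 0, 99.943% were whole multiples of 1 step per mouse (tolerance 0.0051), which gave the recovered reads.

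limma 3.58.1 (trend; R 4.3.3) was fitted to log2(value + 1) for the 14974 genes whose mean reached 10, with the 4 groups in 1 model and 20 residual degrees of freedom. Tests were two-sided, with Benjamini-Hochberg adjustment over all genes within each of 6 comparisons and a threshold of 0.05. Fold changes on this scale understate those of low genes. Alternatives were DESeq2 1.42.0 and edgeR 4.0.16 on recovered reads, other filters and scalings, a pseudocount of 0.1, removal of length and GC trends (loess, span 0.3), blocks for the first (random) or second (fixed) label number, and leaving out each mouse. Scripts were tested on simulated data, in which genes varied independently of each other and 200 genes were changed in the Rum group. The limma fit called 90% of them at a log2 change of 1 and 31% at 0.3. A member with a difference of that smaller size could therefore go uncalled. Replicate pairs all differed beyond counting noise (chi-square per degree of freedom 2.07 to 25.8 over 60 pairs).

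The members and lists were chosen with earlier results of these data known. The text names all members, mt-Cytb, the gene with the smallest p in each direction for Rum against control of each list of neighbouring steps (the mitochondrial mRNAs excepted), the most abundant marker of each cell type and the 10 genes most correlated with the members; mt-Nd4l, mt-Nd5 and Ttr were named after their values were seen. Transcript lengths are medians over GENCODE basic transcripts.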

Additional observations from a re-analysis of the deposited data

Results flagged for a closer look

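Of the 40 sets of 6 mice formed by the 10 members and 4 groups, 5 held a mouse whose gap to the next was large against the range of its group, a criterion that chance meets in about 1 of 20 sets. In the Rum group mouse 9_3 was at 898.5 normalized counts for Uqcr10, with the next mouse at 704.8, and at 1352 for Uqcr11, with the next at 1052. In the dul+Rum group mouse 12_2 was at 1704 for Uqcrc2, with the next at 1994. In the dul group mouse 6_1 was at 1106 for Uqcrfs1, with the next at 1214. In the control group mouse 1_1 was at 1530 for Cyc1, with the next at 1698.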

How the results depend on the processing

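Of 757 values of counts and medians recomputed under the alternatives, 684 stayed within 1.5 times the reported count or within the spread between mice. That spread, 0.085 on the log2 scale, exceeds several of the medians, so a change of sign could pass. The members' median in dul against control went from 0.022 to -0.028 with the length trend removed. In dul+Rum against dul it went from 0.032 to -0.026, and both were counted as staying. Leaving out a mouse outside a comparison cannot move that comparison's median and alters only the spread shared by the 4 groups. The 684 are therefore no measure of robustness. No pairing of mice could be made from the labels: the first number is nested within groups, and the second recurs both across and within them, with no meaning stated. A block for the second number (consensus correlation of mice that share it -0.0315) called 0 genes in Rum against control, 1 in dul+Rum against control and 135 in dul+Rum against Rum, left 1 member at an unadjusted p under 0.05 in dul+Rum against control, and called no member. This block and the alternative that removed length and GC trends together were chosen after seeing the data. For no comparison other than Rum against control did any alternative call a member.

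In Rum against control, 4 genes were called, against 0 when only the groups compared were fitted, 1 with the length trend removed, 1 with length and GC trends removed, 221 with a block for the first label number and 488 with DESeq2. The members called numbered 0, against 2 with the block for the first number (Uqcr11 and Uqcrq) and 4 with DESeq2. The members at an unadjusted p under 0.05 numbered 6, against 3 with the length trend removed. Their median log2 fold change of 0.16 became 0.06 with the length trend removed and 0.05 with length and GC trends removed. Uqcrc2, at -0.01, changed sign with quantile normalization (0.02), with rescaling to the 75th percentile (0.01), with the GC trend removed (0.02), with the block for the second number (0.00), and without mouse 1_1 (0.01), 8_4 (0.02) or 9_3 (0.01), with a range of -0.02 to 0.02 over the mice left out. With length and GC trends removed, Uqcrc1 was at -0.01 and Cyc1 at -0.00. The cause of these shifts was not tested.

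In dul+Rum against control, 15 genes were called, against 30 with a minimum mean of 50, 196 when only the groups compared were fitted, 23 with rescaling to the 75th percentile, 59 with the block for the first number, 32 with the length trend removed, 8 with length and GC trends removed and 217 with DESeq2. The members at an unadjusted p under 0.05 numbered 2, against 4 with rescaling to the 75th percentile, 1 with the length trend removed (Uqcrc1, lower), 1 with the GC trend removed and 0 with both removed. Their median of 0.07 became -0.06 with the length trend removed and -0.06 with both removed. In dul against control DESeq2 called 1 gene, and in dul+Rum against dul 1 gene, against 0 in limma. In dul+Rum against Rum, 334 genes were called, against 0 when only the groups compared were fitted, 533 with the block for the first number and 624 with DESeq2.

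Leaving out 1 mouse at a time gave 0 to 616 genes called in Rum against control: 427 without mouse 8_3, 239 without 9_1, 616 without 9_2, 2 without 3_1, 3_3, 7_2 or 8_4, and 0 without 1_1, 2_2, 2_3 or 9_3. The members called ranged from 0 to 4 (4 without 8_3, 3 without 9_2, 2 without 9_1). In dul+Rum against control the genes called ranged from 5 to 154: 154 without 12_4, 123 without 9_3, 43 without 12_3, 23 without 8_4, 9 without 1_1, 5_3 or 6_1, 7 without 12_2, 6 without 11_3, and 5 without 2_1, 3_1 or 10_2. There the members at an unadjusted p under 0.05 ranged from 1 to 3, with 1 without 1_1, 2_2, 2_3, 3_3, 10_2 or 12_2. The genes called ranged from 0 to 2 in dul+Rum against dul (1 without 5_3 or 7_2, 2 without 9_3) and from 47 to 577 in dul+Rum against Rum (577 without 8_4, 190 without 12_3, 178 without 9_3, 158 without 12_2, 155 without 9_1, 47 without 11_3).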
